A study of Mus musculus with 5 samples.

Results

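The genes examined here make, break down, carry or read retinoic acid, and they were taken as a fixed list of 10 gene symbols out of 55450 annotated genes, of which 21951 are protein-coding. All 10 are protein-coding and were found in the annotation. The list holds the retinaldehyde dehydrogenases Aldh1a1, Aldh1a2 and Aldh1a3, the retinaldehyde reductase Dhrs3, the hydroxylases Cyp26a1, Cyp26b1 and Cyp26c1, the binding proteins Crabp1 and Crabp2, and the receptor gene Rarb.

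H3K27me3 ChIP-seq was done on dermal fibroblasts from the skin of wild-type mouse embryos of C57BL/6 background, expanded in culture before the assay. The 4 libraries comprise 2 labelled E14 (E14.5 in the study's text) and 2 labelled E17 (E18.5 in the study's text), with no treatment and no altered allele at either stage. They are called E14.5 and E18.5 here. The labels do not say whether replicates came from separate litters or cultures, so the spread between them may be technical, and culture may change the cells at both stages alike. The labels and the study's methods differ on the medium, the shearing of chromatin and the sequencing kit, so those methods may not describe these libraries in full.

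Vitamin A reaches tissues as retinol, which is oxidised to retinaldehyde and then, by the ALDH1A enzymes, to retinoic acid. DHRS3 turns retinaldehyde back to retinol, the CYP26 enzymes inactivate retinoic acid, and the CRABP proteins carry it in the cytosol. Retinoic acid binds receptors of the RAR family, which sit with RXR partners on response elements and switch on targets, several of which (Cyp26a1, Dhrs3, Rarb, Crabp2) are themselves part of the pathway. In embryonic skin the pathway acts on the dermis and on hair follicle formation. H3K27me3 is placed by Polycomb complexes and marks repressed genes, often over CpG-rich promoters of developmental regulators.

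The peak lists held between 7107 and 21546 peaks and covered between 14.3 and 52.8 Mb, with both E18.5 lists shorter than both E14.5 lists. A peak is a stretch called above the local background at a q-value of 0.01, and the lists hold no read counts. The study's methods say that wild-type and Kdm6b-knockout samples of E18.5 were brought to the read depth of the others. The methods do not say whether the E18.5 libraries used here are meant, so the depth of each list is not known. A missing peak means only that the signal did not pass that list's threshold. As a check of the labelled cell type, none of 11 fibroblast genes (Col1a1, Col1a2, Col3a1, Pdgfra, Twist1, Twist2, Prrx1, Lum, Dpt, Fn1 and Vim) had, in any list, a peak lying within 3000 bp of a start site. This was so for 74.1% of all protein-coding genes, so it is a weak check. Of 16 genes of keratinocytes, endothelium, melanocytes, immune cells and muscle, 6 had such a peak in both E14.5 lists (Epcam, Cdh1, Sox10, Myod1, Myf5 and Acta1). All of these but Myf5, 5 genes, had one in both E18.5 lists. Over all protein-coding genes the shares were 19.5% and 12.2%. The other 10 had none in any list, so a gene without a peak is not thereby an expressed gene.

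By the presence of a peak within 3000 bp of an annotated start site, the 10 genes were marked in all 4 libraries, in some or in none. Aldh1a2, Aldh1a3, Cyp26a1, Cyp26b1 and Cyp26c1 had a peak in all 4 libraries. Dhrs3 had one in each E14.5 library and in no E18.5 library. Rarb had one in 3 libraries, Crabp1 in 1 library of each stage, Crabp2 in E14.5 replicate 1 only, and Aldh1a1 in none. Thus 6 of 10 genes were marked in both libraries at E14.5, against 19.5% of all protein-coding genes, and 6 of 10 in both libraries at E18.5, against 12.2%. The sixth gene differed between the stages, Dhrs3 at E14.5 and Rarb at E18.5. The Rarb peaks of the E18.5 libraries did not overlap each other, and only that of replicate 2 lay within 1000 bp of a start site. The maps of the peaks show these groups side by side.

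**Figure D1:**
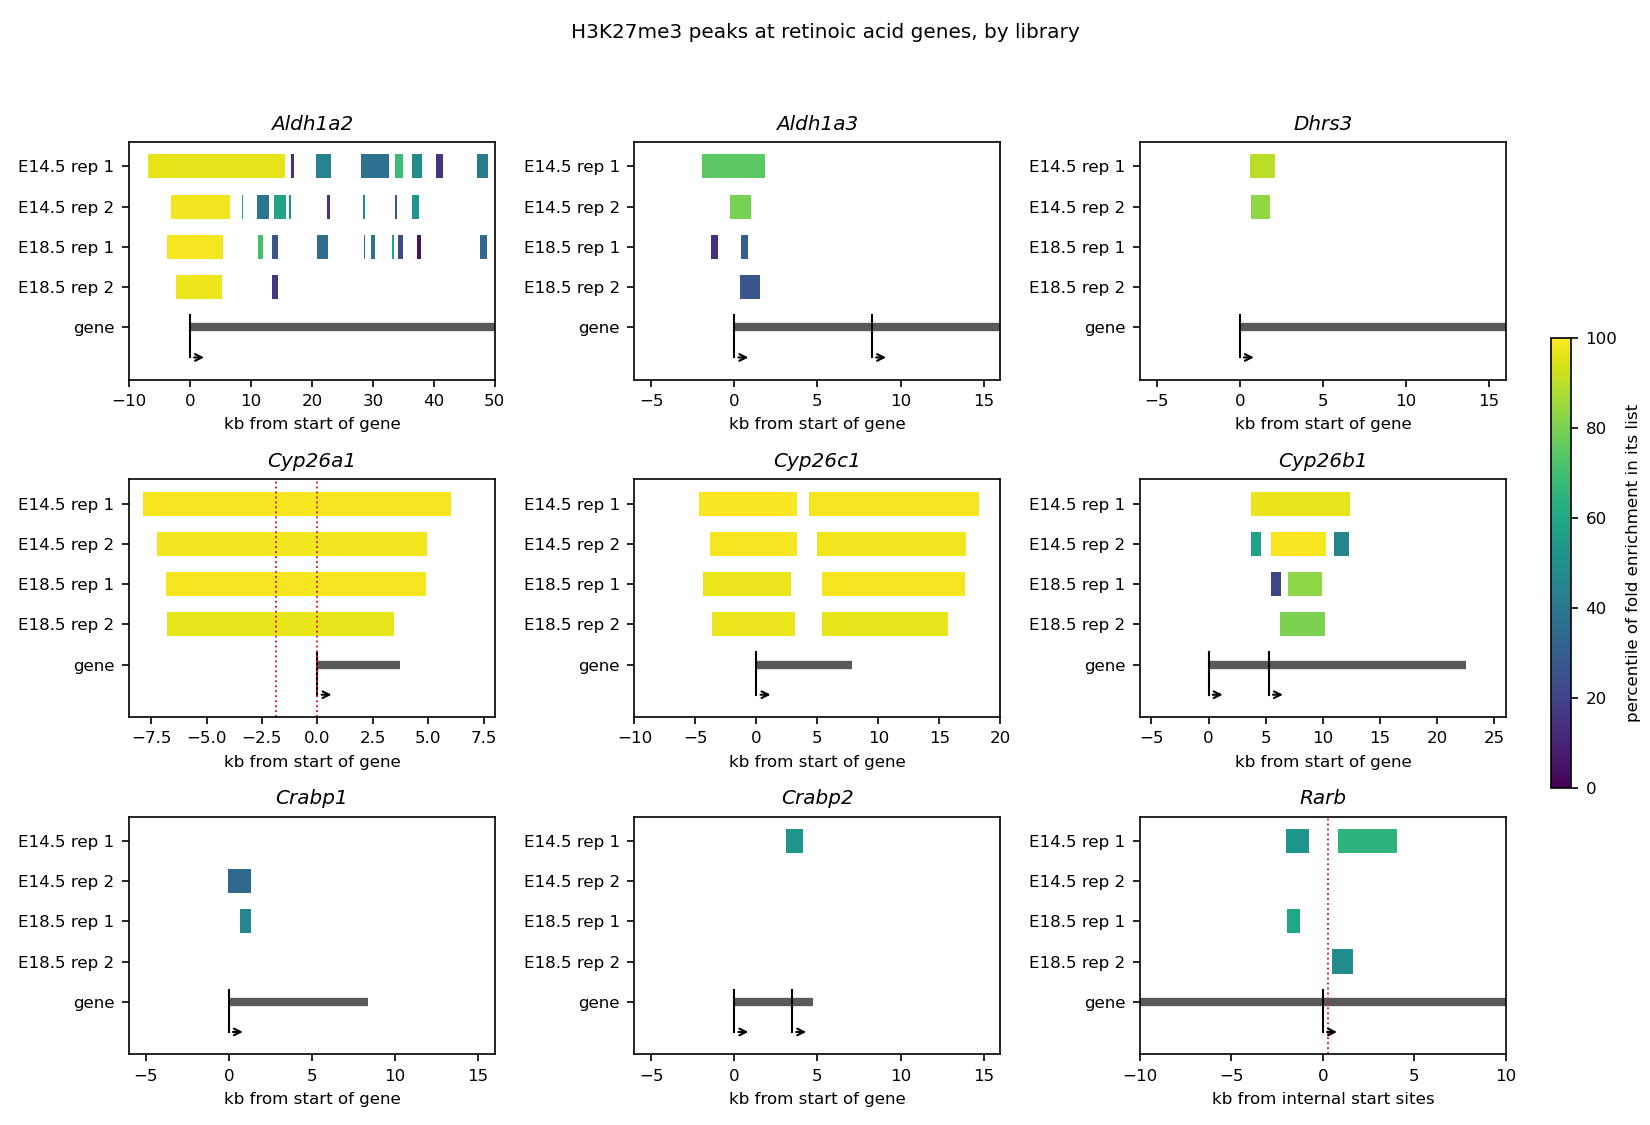
Peaks of each library (rows) at the 9 genes with a peak, drawn by distance in kb from the start of the gene, or from the internal start sites for Rarb, with transcription to the right. Colour gives the percentile of the peak's fold enrichment in its own list, arrows mark groups of start sites, and dotted red lines mark DR5 elements. In the Cyp26c1 panel the right-hand peaks are those of Cyp26a1. Each panel shows the peaks in the gene and within 3000 bp of its start sites, except that of Aldh1a2. That panel stops before the end of the gene and leaves out the peaks farthest downstream, all of them in E14.5 libraries. Cyp26a1, Cyp26c1 and the start of Aldh1a2 carry wide yellow peaks in all 4 libraries, and Dhrs3 has peaks at E14.5 only.

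Cyp26a1 and Cyp26c1 are neighbours on chromosome 19, with starts 12217 bp apart, and they lay under a pair of wide peaks in every library. Cyp26a1 (chromosome 19 from 37697798 to 37701536, plus strand, GRCm38) encodes the main retinoic acid inactivating enzyme induced by retinoic acid. The peak over its start was 13906 and 12180 bp wide in the E14.5 libraries against 11704 and 10276 bp at E18.5. Ranked by fold enrichment within its list, it reached percentiles of 98.8 and 98.0 at E14.5 and of 98.6 and 96.1 at E18.5. The fold enrichment, the ratio of pileup to local background that the peak caller gives, was 7.20, 7.04, 5.46 and 5.15 in the order E14.5 replicates 1 and 2 and E18.5 replicates 1 and 2, and was used only as a rank within each list. All 6288 bp within 3000 bp of its 2 start sites were covered in all 4 libraries. This measure therefore showed no change, and a gain, or a loss outside the window, could not register. The whole gene of 3739 bp was covered in 3 libraries, and 3471 bp of it in E18.5 replicate 2.

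Cyp26c1 (chromosome 19 from 37685581 to 37693398, plus strand), a related hydroxylase, had a start peak of 8084 and 7085 bp in the E14.5 libraries against 7229 and 6865 bp at E18.5. These widths overlapped between the stages. The window around its start was covered over 6001 bp in 3 libraries and over 5863 bp in E18.5 replicate 1. Between the Cyp26c1 and the Cyp26a1 peak, inside Cyp26c1, an unmarked gap was found in every library. It measured 985 and 1685 bp in the E14.5 libraries against 2537 and 2215 bp at E18.5, with the 2 E18.5 gaps both wider than either E14.5 gap. The summed width of both peaks was 21990 and 19265 bp in the E14.5 libraries against 18933 and 17141 bp at E18.5, and the gap between the nearest libraries of the 2 stages was smaller than the difference between the E14.5 replicates.

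The sequences before the starts of Cyp26a1 and Rarb are shown because each holds a DR5 retinoic acid response element, the kind that RAR and RXR bind. A DR5 element was searched on both strands as a direct repeat of a 6-base site, AGGTCA or AGTTCA or either of these with G as its first base, with 5 bases between the copies. Of 32851 RefSeq promoters of 300 bp (GRCm38.p6), 32 held a match, or 0.0974%. The search covered 11 promoters of 8 of the genes, and Aldh1a3 and Crabp2 were not among the promoters. Shown are the 150 bases before the RefSeq start, 5′ to 3′ on the strand of the gene, with the element in capitals.
Cyp26a1, plus strand, chr19:37697658-37697807: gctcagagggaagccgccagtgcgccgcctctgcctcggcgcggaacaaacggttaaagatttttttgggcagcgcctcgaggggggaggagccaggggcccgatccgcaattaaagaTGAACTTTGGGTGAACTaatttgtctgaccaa
Rarb, minus strand, chr14:16575477-16575626: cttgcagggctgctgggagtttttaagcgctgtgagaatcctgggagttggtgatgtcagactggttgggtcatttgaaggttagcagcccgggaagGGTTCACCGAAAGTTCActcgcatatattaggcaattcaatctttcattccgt

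The Cyp26a1 element reads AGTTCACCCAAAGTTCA on the minus strand, from 37697776 to 37697792. Within 3000 bp of its starts Cyp26a1 held a further match, GGGTCACAGGCGGGTCA from 37695909 to 37695925 on the plus strand. Both elements of Cyp26a1 lay inside the peak in all 4 libraries. In Rarb the element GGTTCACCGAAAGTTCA, from 16575513 to 16575529 on the minus strand, lay inside a peak in none. The nearest peak was 489 bp away in E14.5 replicate 1, 1557 bp in E18.5 replicate 1 and 200 bp in E18.5 replicate 2. No other gene of the list held a DR5 match within 3000 bp of a start site, where 4.25% of protein-coding genes hold one. With 2 bases between the copies (DR2), Crabp2 had a match from 87947525 to 87947538 on chromosome 3, inside no peak, and 11.6% of protein-coding genes hold one. These matches are letters in a window and were not tested for binding.

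Rarb encodes retinoic acid receptor beta, and its peaks lay at the internal start sites that carry this element. The gene is 388318 bp long (chromosome 14 from 16430839 to 16819156, minus strand). Its 2 upstream start sites had no peak within 3000 bp in any library. The 5 internal start sites begin 243329 bp downstream. Around them, peaks covered 4250 bp in E14.5 replicate 1, 0 bp in E14.5 replicate 2, 712 bp in E18.5 replicate 1 and 1155 bp in E18.5 replicate 2. The stages overlapped fully, because the E14.5 libraries were the highest and the lowest of the 4. In E14.5 replicate 1 peaks of 1271 and 3234 bp flanked the start sites with 1 on each side, while each E18.5 library had a single peak, upstream of the sites in replicate 1 and over the most downstream site in replicate 2. With lists of equal number Rarb had a peak in both E18.5 lists and in neither E14.5 list, with 934 bp more covered at E18.5, and with lists of equal covered length in E18.5 replicate 2 only, with 578 bp more. The strongest peak stood at the 64.5, 59.5 and 48.3 percentile in the 3 libraries that had one, and no Rarb peak listed here reached a −log10 q-value of 5.

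Cyp26b1, the third hydroxylase, has a known role in the embryonic hair follicle, and its mark lay inside the gene, over a shorter length in both E18.5 libraries than in either E14.5 library. In Cyp26b1 (chromosome 6 from 84571414 to 84593908, minus strand) the 2 upstream start sites had no peak within 3000 bp in any library. The peaks within 3000 bp of a start site lay at the 3 internal start sites that begin 5270 bp downstream, while another of 1335 bp lay beyond that window in E14.5 replicate 2. Within 3000 bp of these sites, peaks covered 5550 and 4651 bp in the E14.5 libraries against 3075 and 2958 bp at E18.5. Both E18.5 values were below both E14.5 values, a decrease of 40.9% in the mean. In the gene body the covered length was 8662 and 7000 bp in the E14.5 libraries against 3777 and 3922 bp at E18.5, again without overlap. Neither difference could pass the test with 2 libraries a stage, and most marked genes were covered over a shorter length in the E18.5 lists. The percentile of the strongest peak was 96.8 and 99.0 at E14.5 against 83.0 and 80.2 at E18.5. It was 90.2 and 97.8 against 75.1 and 80.2 with lists of equal number, and overlapped with lists of equal covered length, at 55.0 and 93.5 against 56.9 and 80.2. With the start of the gene record as the only start site, Cyp26b1 had no peak in any library.

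Aldh1a2 encodes the main retinoic acid synthesising enzyme of the early embryo. At Aldh1a2 (chromosome 9 from 71215789 to 71296243, plus strand) the start was covered in every library, and the fewest peaks in the gene body were found in E18.5 replicate 2. The peak over the start was 22553 and 9544 bp wide in the E14.5 libraries against 9255 and 7436 bp at E18.5. In the full lists it stood at the 96.0, 97.7, 98.8 and 97.2 percentile in E14.5 replicates 1 and 2 and E18.5 replicates 1 and 2. These values did not separate the stages. With lists of equal number it stood higher at E18.5, at 88.0 and 94.7 against 98.2 and 97.2. The same held with lists of equal covered length, at 44.8 and 84.4 against 96.8 and 97.2. The window around the start was covered in full, 6001 bp, in 3 libraries and over 5208 bp in E18.5 replicate 2. In the gene body of 80455 bp, 11, 10, 10 and 2 peaks in the same order covered 31558, 13537, 12650 and 6240 bp. The mean covered length of the gene body was lower at E18.5 by 58.1%, but the difference between the 2 E14.5 replicates was larger than that between E14.5 replicate 2 and E18.5 replicate 1. Most of the covered length within the gene was intron.

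Aldh1a3, which also makes retinoic acid, was marked in every library, with low-ranked peaks at E18.5. At Aldh1a3 (chromosome 7 from 66390890 to 66427517, minus strand) peaks near start sites covered 3764 and 1283 bp in the E14.5 libraries against 846 and 1195 bp at E18.5, and all of them lay at the most upstream of 3 groups of start sites. Both E18.5 values were below both E14.5 values, the nearest pair by less than the E14.5 replicates differed. The percentile of the strongest peak was 74.8 and 79.6 at E14.5, against 28.2 and 26.9 at E18.5. This separation depended on list length. With lists of equal number the percentile was 23.7 and 52.5 at E14.5, against 26.9 in E18.5 replicate 2 and no peak in E18.5 replicate 1. In both E14.5 libraries the peak covered the start of the gene record, which no E18.5 peak did. E18.5 replicate 1 had a peak of 396 bp upstream of it and one of 450 bp that began 385 bp downstream. The single peak of E18.5 replicate 2 began 347 bp downstream and covered a later start site of the same group. With only peaks of a −log10 q-value of at least 3, Aldh1a3 had no peak in either E18.5 library. With lists of equal covered length it had a peak in E18.5 replicate 2 only, so that the direction was reversed. Aldh1a1 (chromosome 19 from 20492715 to 20643465, plus strand), the third enzyme of this family, had no peak near its 5 start sites or in its 150751 bp in any library.

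Dhrs3, the retinaldehyde reductase, was the only gene of the 10 whose peaks were found in each E14.5 library and in no E18.5 library. Of the protein-coding genes marked in both E14.5 libraries, 23.8% had no E18.5 peak. At Dhrs3 (chromosome 4 from 144892827 to 144928209, plus strand) the E14.5 peaks were 1493 and 1129 bp wide and began 634 and 682 bp downstream of the start of the gene, over exon and intron and over no start site. They stood at the 89.6 and 83.5 percentile, with −log10 q-values of 8.64 and 7.04. Protein-coding genes were sorted into 10 groups of equal size by their mean percentile at E14.5. Dhrs3 fell into the sixth group, where 5.39% of genes had no E18.5 peak, and Aldh1a3 into the fourth, with 29.3%. Aldh1a2 fell into the ninth and the 3 Cyp26 genes into the highest, with 1.17% and 1.64%. With lists of equal covered length the narrow Dhrs3 peaks were no longer in either E14.5 list, and the contrast could not be seen.

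**Figure D2:**
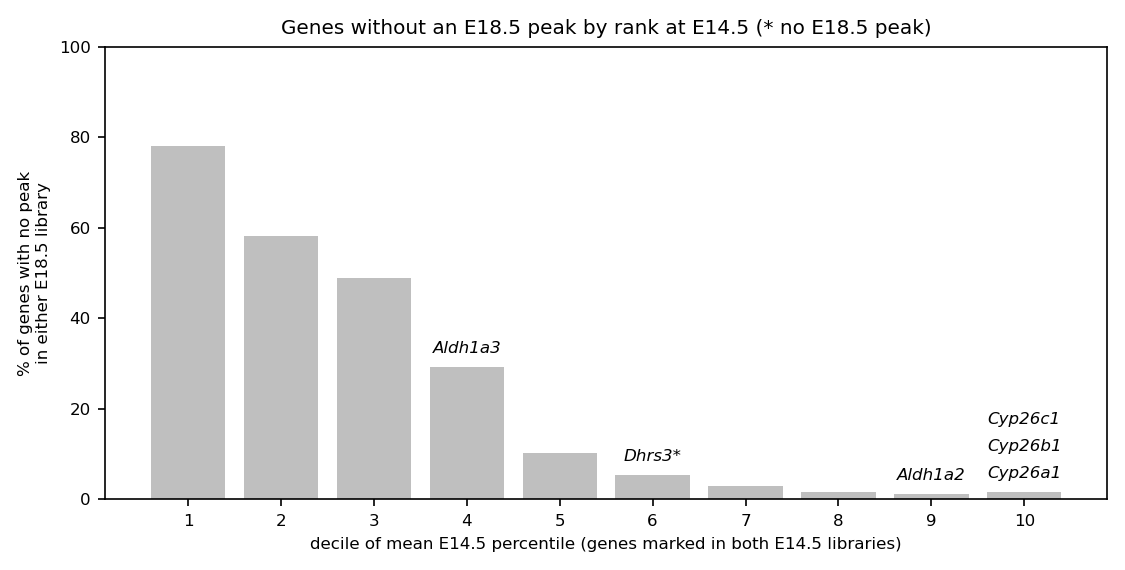
Share of protein-coding genes with no peak near a start site in either E18.5 library (vertical axis, percent), by decile of the mean E14.5 percentile of fold enrichment (horizontal axis), for the 4270 genes marked in each of the E14.5 libraries. Names place the 6 genes of the list that were marked in both, and the asterisk marks Dhrs3, the 1 of them without an E18.5 peak.

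Crabp1 and Crabp2, which encode cellular retinoic acid binding proteins, had narrow and low-ranked peaks that did not repeat within a stage. Crabp1 (chromosome 9 from 54764748 to 54773110, plus strand) is known as a gene of upper dermal and dermal papilla fibroblasts. Its peaks covered 1394 bp in E14.5 replicate 2 and 636 bp in E18.5 replicate 1, at the 33.3 and 46.3 percentile, and none was called in the other 2 libraries. At Crabp2 (chromosome 3 from 87948666 to 87953376, plus strand) E14.5 replicate 1 had a peak of 1063 bp at the 52.0 percentile, over an internal start site 3478 bp downstream. For both genes the presence of a peak differed as much between replicates as between stages. With lists of equal number Crabp1 kept only the E18.5 peak, a mean of 318 bp more at E18.5, and Crabp2 had none.

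The plot of covered length by library sets the 10 genes together. Of the 6 genes with E14.5 peaks in both replicates, 3 (Aldh1a3, Cyp26b1 and Dhrs3) had a shorter covered length near start sites in both E18.5 libraries, against 84.2% of the protein-coding genes marked in both E14.5 libraries. For each of the 3, the exact permutation test, two-sided, gave p = 0.33, the smallest that 2 libraries against 2 allow, so no difference between the stages could pass 0.05. In the other 3, Aldh1a2, Cyp26a1 and Cyp26c1, peaks filled the window or nearly so in at least 3 libraries. Measured over the whole merged peak region instead of the window, peaks covered less in both E18.5 libraries in 5 of the 6 regions, all but that of Cyp26c1, against 88.5% of such regions near protein-coding genes. In gene bodies it was shorter for 4 of 6 genes (Aldh1a2, Dhrs3, Cyp26b1 and Cyp26c1), against 82.3%. Summed over the 10 genes, the covered length was lower at E18.5 by 24.4% near start sites and by 47.8% in gene bodies, against 46.6% and 54.2% over all protein-coding genes. Per gene, the median decrease near start sites was 23.7% for the 6 genes. For all protein-coding genes with a peak in each E14.5 library it was 58.2%. At Aldh1a2, Cyp26a1 and Cyp26c1 the E14.5 peaks covered the whole window and reached beyond it. A loss outside the window could not register there, and the decreases were 6.61%, 0% and 1.15%. This limits both the median and the sum near start sites. Whether the listed genes kept the mark better than other genes was not tested.

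**Figure D3:**
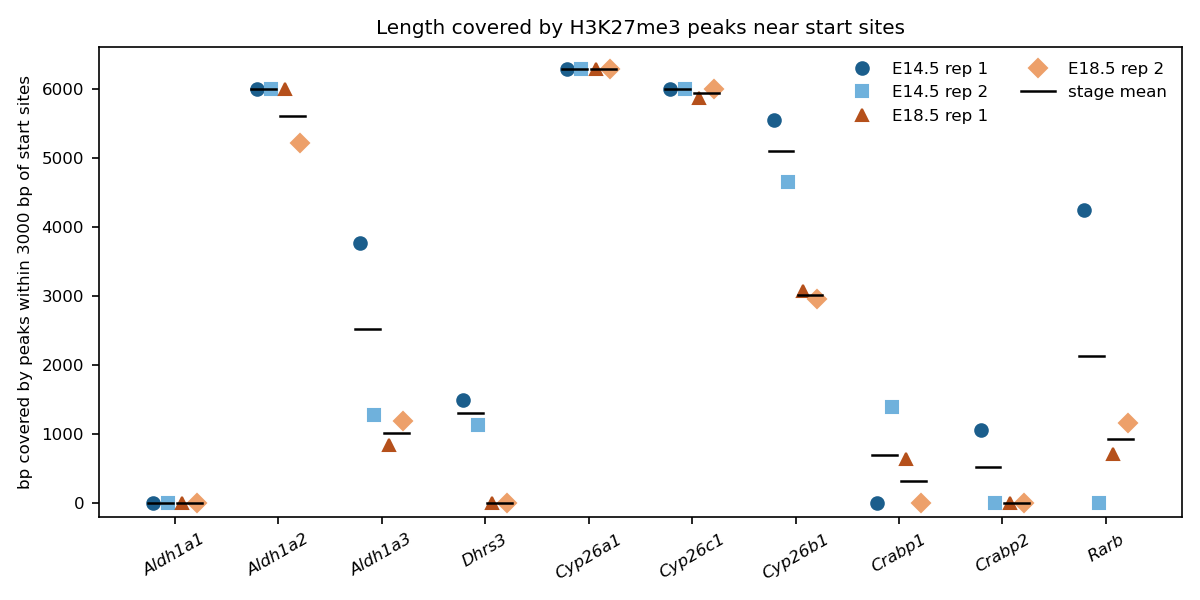
Length covered by peaks within 3000 bp of annotated start sites (vertical axis, bp) for each of the 10 genes. Points are libraries and black bars are stage means (n = 2). Cyp26a1, Cyp26c1 and Aldh1a2 sit at or near the full window in every library, and the stages separate at Aldh1a3, Dhrs3 and Cyp26b1.

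At E14.5 the peaks of the Cyp26 genes and Aldh1a2 ranked high. The median gene of the 6 stood at a mean percentile of 97.4 at E14.5, against 85.5 for all protein-coding genes marked there. Aldh1a3, 1 of the 6, stood lower, at a mean of 77.2. The E14.5 peaks of Rarb, Crabp2 and Crabp1, each found in 1 library, stood at 64.5, 52.0 and 33.3. Of the 5 genes with a peak in all libraries, 3 (Aldh1a3, Cyp26b1 and Cyp26c1) had a lower percentile in both E18.5 lists, against 73.3% of protein-coding genes with a peak in all 4. For Cyp26c1 the step was small, from 98.9 and 98.5 to 97.0 and 97.1, and it was reversed with lists of equal covered length, at 85.0 and 89.7 against 92.4 and 97.1. Ranks come from lists of unequal length, and the order of the stages depended on that. The median change over the 5 genes was −1.65 percentile points, and it turned positive when lists of equal number (0.415) or equal covered length (9.39) were used.

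**Figure D4:**
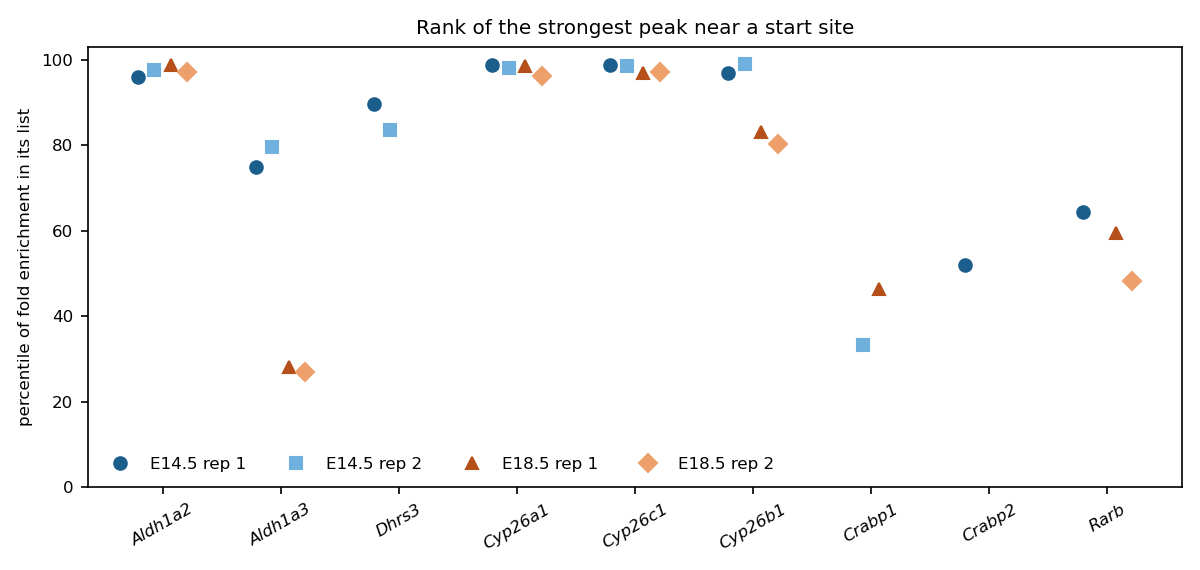
Percentile of fold enrichment, within its own list, of the strongest peak near a start site (vertical axis), for the 9 genes with a peak. Points are libraries, and a library without a peak has no point. In these full lists Aldh1a3 and Cyp26b1 stand lower at E18.5 than at E14.5. Aldh1a2, Cyp26a1 and Cyp26c1 stay above the 96.0 percentile or at it.

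The groups of start sites with a peak nearby were in most cases those above the median CpG content of protein-coding genes. CpG content was taken as the observed over expected number of CpG within 500 bp of a start site, with a median of 0.55 over protein-coding genes. The 10 genes have 17 groups of start sites, where starts within 1000 bp of one another form a group. All 7 groups above that median had a peak within 3000 bp in at least 1 library, and 2 of the 10 groups below it did, those of Cyp26c1 (0.39) and the internal start of Crabp2 (0.23). Of the 7, the start of Crabp1 (0.62) and the internal start sites of Rarb (0.60) lay little above the median. The comparison of groups by CpG content was chosen after the values were seen. Over all protein-coding genes only the start of the gene record was scored, without internal start sites, so the shares are not like for like. A peak in at least 1 library was found near that start in 28.1% of genes above the median and 19.4% of the rest. Within genes, the internal start sites of Cyp26b1 had a ratio of 0.85 against 0.22 at the upstream start without a peak, and those of Rarb 0.60 against 0.10. The sequences of Aldh1a2, marked in all libraries, Aldh1a1, marked in none, and Cyp26c1, marked in all at a low CpG content, show the range. Each line gives the 150 bases before the RefSeq start, 5′ to 3′, with CpG in capitals (23, 2 and 1 CpG, respectively).
Aldh1a2, plus strand, chr9:71215639-71215788: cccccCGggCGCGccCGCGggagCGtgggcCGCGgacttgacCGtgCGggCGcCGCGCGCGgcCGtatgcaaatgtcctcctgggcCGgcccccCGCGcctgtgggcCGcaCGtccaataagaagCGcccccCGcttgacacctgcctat
Aldh1a1, plus strand, chr19:20492433-20492582: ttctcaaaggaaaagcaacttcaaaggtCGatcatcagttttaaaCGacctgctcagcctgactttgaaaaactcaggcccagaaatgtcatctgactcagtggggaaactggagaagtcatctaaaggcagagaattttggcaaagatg
Cyp26c1, plus strand, chr19:37685530-37685679: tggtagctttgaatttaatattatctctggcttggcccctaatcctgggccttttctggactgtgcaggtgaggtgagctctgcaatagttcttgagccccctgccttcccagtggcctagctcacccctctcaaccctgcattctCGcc

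**Figure D5:**
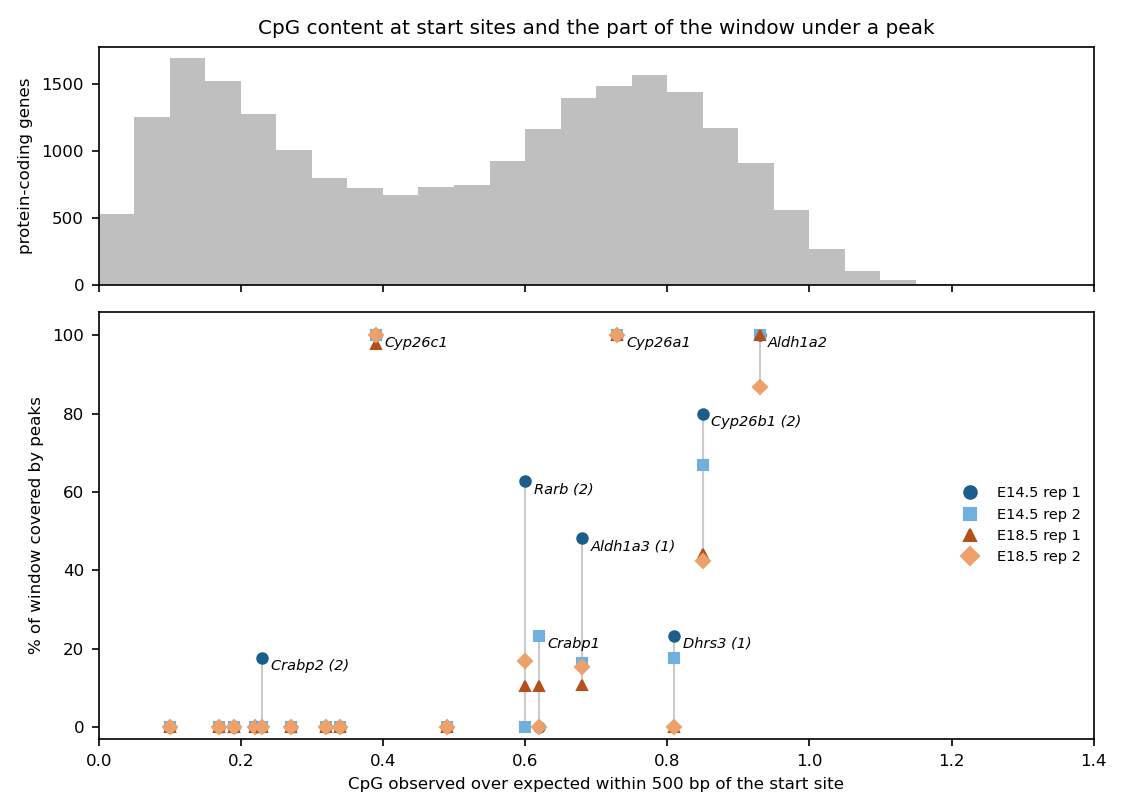
Upper panel, protein-coding genes by CpG observed over expected within 500 bp of the gene start. Lower panel, the 17 groups of start sites of the 10 genes by the same ratio (horizontal axis) and by the part of the 3000 bp windows under a peak (vertical axis, percent), with a point per library and the group number of genes with several groups. Groups with a ratio above 0.55 all have a library above 0, and Cyp26c1 is fully covered at 0.39.

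No other annotated gene had a start site inside the 10 merged regions near the start sites of these genes. Likeness to other genes was measured as the summed absolute difference in the percent of start-site windows covered over the 4 libraries. The protein-coding gene most like Aldh1a2 was Msx3 (summed difference of 0.0189 points), and those most like Aldh1a3, Cyp26b1 and Cyp26c1 were Ccdc112 (2.06), Slc12a5 (7.72) and Gad2 (0.933). For Cyp26a1, 99 genes, Pax3 among them, were covered in full in all 4 libraries and tied at 0.

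In a wider list of 39 genes of the retinoid pathway, the counts of marked genes were near those of all protein-coding genes. Start-site peaks were found for 7 of them in both E14.5 libraries and for 5 in both E18.5 libraries, beside the 19.5% and 12.2% given above. No peak in any library was found for 28, against 74.1% of protein-coding genes, among them the receptor genes Rara, Rarg and Rxra and the retinol dehydrogenase Rdh10. The retinol uptake receptor gene Stra6 was covered over 15889 and 12321 bp in the E14.5 libraries against 8034 and 1696 bp at E18.5. Rbp4, which encodes the retinol carrier of plasma, was covered over 6557 and 2407 bp in the E14.5 libraries against 911 and 874 bp at E18.5. Lrat, which esterifies retinol for storage, was covered over 3268 and 4018 bp in the E14.5 libraries against 1800 and 1625 bp at E18.5. Both E18.5 values were below both E14.5 values in these 3 genes and in Rxrb, Rxrg and Rarres1, or 6 of the 7, beside the 84.2% of all protein-coding genes marked in both E14.5 libraries. Stra6l, a relative of Stra6, overlapped between the stages, with 2896 and 1654 bp in the E14.5 libraries against 2080 and 798 bp at E18.5. Among the RXR genes, Rxrg had 4746 and 3366 bp in the E14.5 libraries against 763 and 0 bp at E18.5, and Rxrb 1111 and 1277 bp against 1092 and 444 bp. Rarres1, a retinoic acid induced gene, was covered over 2743 and 2104 bp at E14.5 and had no peak near its start at E18.5, the 1 gene of the 7 in this state.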

How the data were processed

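H3K27me3 ChIP-seq peak lists of 2 E14.5 and 2 E18.5 libraries were used, grouped by their titles. The submitters' processing notes name mm10, Bowtie2 2.3.5.1 and MACS2 2.2.7.1, and the authors' methods give alignment with the former and broad peaks at a q-value of 0.01. The labels give DMEM, sonication and an Ion Torrent kit, where the methods give AmnioMAX, an enzymatic kit and Illumina sequencing, so the methods may not describe these libraries. The deposited lists give peak positions, the fold enrichment (a ratio of pileup to local background) and −log10 p- and q-values. The methods say that wild-type and Kdm6b-knockout samples of E18.5 were subsampled to the depth of the others, without saying whether these libraries are meant. The control used for the call is not given in the sources used here. The input library was not analysed here.

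Genes came from GENCODE vM21 (GRCm38). For each gene and library, peaks within 3000 bp of any start site and in the gene body were scored by presence, covered length and percentile of fold enrichment within the list. Overlapping peaks (1 bp or more) were joined into regions. The stages were tested with a two-sided exact permutation test, for which 3 distinct divisions of the libraries exist. The genes and lists were chosen with earlier results of these data known. Named are the 10 genes, pathway genes marked in both libraries of a stage, genes sharing a region, and the most alike gene. A few unmarked genes and the CpG comparison were added after their values were seen. Python 3.11.15, numpy 2.4.6, pandas 2.3.3 and matplotlib 3.10.9 were used, and the scoring was tested on simulated data. Alternatives covered the window, start sites, q-value, peak width, list length, background genes, single libraries and pairing.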

Additional observations from a re-analysis of the deposited data

How the results depend on the processing

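The count of genes marked in both E14.5 libraries stayed within 4 to 8 in all settings. The count for E18.5 was 3 with a −log10 q-value of at least 5. It was 4 with the start of the gene record only, with peaks of at least 1000 bp and with lists of equal covered length. With a window of 1000 bp, a −log10 q-value of at least 3 or lists of equal number it was 5. Without E18.5 replicate 2 it was 7, and in the other settings 6. Genes at E14.5 only numbered 2 with a −log10 q-value of at least 3 and 0 with lists of equal covered length, where fewer peaks are kept at E14.5. Leaving out single libraries gave 1 to 2, the 2 without E14.5 replicate 2. The share of marked protein-coding genes without an E18.5 peak was 37.4% at a −log10 q-value of at least 5, 11.5% with lists of equal number and 1.93% with equal covered length, and ranged from 25.9% to 36.9% without single libraries, with 36.0% without E18.5 replicate 1 and the highest without E14.5 replicate 2. The summed covered length of the 10 genes near start sites was lower at E18.5 by 24.4%, by 5.85% with equal covered length, and by 13.6% to 32.8% without single libraries, 13.6% without E14.5 replicate 1. In gene bodies it was lower by 47.8%, and by 28.0% to 59.1% without single libraries, 28.0% without E14.5 replicate 1. The median change in percentile of the genes marked in all lists was −2.44 and −6.90 points with a −log10 q-value of at least 3 and 5, −2.89 with peaks of at least 1000 bp, 0.415 with lists of equal number, 9.39 with equal covered length, and −6.21 to −1.44 without single libraries, −6.21 without E14.5 replicate 2. The difference of Aldh1a3 was reversed with equal covered length, 598 bp longer at E18.5, and those of Rarb and Crabp1, whose stages overlapped, changed sign with lists of equal number. The cause of these changes was not tested. Of 120 recomputed differences of single genes, 112 were unchanged or moved by less than the spread between replicates. These 112 include those of Aldh1a1, which had no peak and could not move, and the sign changes of Rarb and Crabp1. The count is therefore no measure of robustness.

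Replicate numbers are shared between the stages, and nothing in the labels says that they mark a litter or batch. Across 5675 genes, replicate 1 minus replicate 2 in covered length correlated between the stages with r = 0.165. With the replicate number as a block, the mean difference was 23.3% near start sites and 45.3% in gene bodies. Lists without read counts give no precision for a single peak.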
